A study of Homo sapiens with 8 samples.

Results

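The genes described here are the cytosolic aminoacyl-tRNA synthetases, the tRNA export factor XPOT, and enzymes and transporters of amino acid supply that are known targets of the transcription factor ATF4. They were chosen by symbol, with no threshold on measured values, and number 34 of the 58735 genes in the deposited table. In all, 20 encode synthetases and 14 the other members. They were measured in PC3, an androgen-independent human prostate cancer line established from a bone metastasis, grown as a culture of 1 line in serum-containing medium. The tested libraries, 4 labelled siPRMT7 (genotype label PRMT7 knockdown), were set against 4 labelled siCtrl (genotype label WT). The protocol for all 8 describes lipofection with synthetic RNA mimics or negative controls and another 48 h in culture. Titles use the prefix si and library names of the same samples the prefix sh. The labels do not say whether replicates were separate cultures, so p-values measure only the spread between these libraries, which may be technical.

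Each aminoacyl-tRNA synthetase joins one amino acid (EPRS joins a pair) to its tRNAs, the step that fixes the genetic code. Class I and class II enzymes have unrelated catalytic folds. When amino acids run short or the endoplasmic reticulum is stressed, phosphorylation of eIF2alpha raises translation of ATF4, which binds C/EBP-ATF response elements of genes for synthetases, for serine, one-carbon and asparagine synthesis, and for amino acid uptake. WARS, the tryptophanyl-tRNA synthetase, differs from the rest in being a classical gamma interferon-induced gene.

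Totals ranged from 14526030 to 15724862 fragments per library. The targeted gene PRMT7 averaged 4.69 ± 0.298 FPKM in siPRMT7 and 5.11 ± 0.183 FPKM in siCtrl libraries (SD, n = 4 each; two-sided exact permutation p = 0.0571, where 0.0286 is the smallest possible). Directions below are therefore those of libraries labelled siPRMT7, in which the target differed by -8.29% and did not pass its test. One library stood apart: siPRMT7 replicate 2 lay at 28.4 on the first principal component (31.4% of the variance), and the other 7 between -11.9 and 7.36. The share of fragments from ribosomal protein genes was 3.89% there and 2.93 to 3.41% elsewhere. Of 5 epithelial markers, 4 (KRT8, KRT18, KRT19 and EPCAM) had at least 1 FPKM in every library and CDH1 did not, and their sum was 409.7 to 516.6 FPKM in siPRMT7 and 397.9 to 435.8 FPKM in siCtrl libraries. The androgen-regulated KLK2 and KLK3 were at 0 in all 8. Of 10 markers of fibroblasts, endothelium and blood, COL1A1 and PECAM1 reached 1 FPKM in all libraries, and CD3E was at 0 in all. The fibroblast sum was 6.52 to 7.64 FPKM in siPRMT7 and 6.57 to 7.77 FPKM in siCtrl libraries, and the endothelial sum 2.84 to 3.62 FPKM in siPRMT7 and 3.21 to 3.64 FPKM in siCtrl libraries. The blood sum was 0.286 to 0.4999 FPKM in siPRMT7 and 0.261 to 0.513 FPKM in siCtrl libraries. Their part in the results was not tested, and in bulk RNA fewer cells of a type and less RNA per cell cannot be told apart.

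Of the 34 members, 33 had at least 1 FPKM in at least 4 libraries and were tested. FPKM are fragments scaled by gene length in kilobases and by library size. None passed limma at an adjusted p of 0.05 over all 13436 genes tested (0 of 33; 0 also with voom on rebuilt fragments), where 0.0149% of all genes passed. At an unadjusted p under 0.05 there were 4 members, or 12.1%, against 13.2% of all genes. The groups did not overlap for the same number, 4 members (12.1%), against 8.57% of all genes. Those 4 were the same by both measures. SLC3A2 was higher in siPRMT7, 1 of 33, against 7.67% of all genes by p and 4.14% by overlap in that direction. CTH, ALDH18A1 and EPRS were lower, 3 of 33, against 5.49% of all genes by p and 4.43% by overlap. The share at an unadjusted p under 0.05 is thus near that of all genes, and is no result about the module.

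The median log2 fold change of the 33, siPRMT7 minus siCtrl on the log2(FPKM + 1) scale, was 0.0003, against -0.0015 over all genes tested. Of them 17 were higher and 16 lower, but 8 were higher with every library brought to one total (TPM scale) and 9 with quantile normalization. On the TPM scale the median of all genes moved as well, to -0.0409, beside -0.0407 for the members. With quantile normalization it was -0.0057 for all genes and -0.0406 for the members. Without siPRMT7 replicate 2 the count was 12 higher and 21 lower (median -0.01). Single members lay between -0.13 (CTH) and 0.26 (SLC3A2). On this scale, the 95% limma interval, taken gene by gene, lay inside log2 0.263 (1.2-fold) in either direction for 32 of the 33. The scale understates fold changes of low genes, so this is not a bound on FPKM itself. SLC1A4, the lowest tested member, came close to the limit, with a lower bound of -0.2592. The exception to the 32 was SLC3A2, with an upper bound of 0.41. Per library, the median deviation of the members from their siCtrl means was -0.0475, 0.0073, 0.0335 and -0.0157 in siPRMT7 replicates 1 to 4, and -0.0152, -0.0204, 0.0195 and 0.0153 in siCtrl replicates 1 to 4. The siPRMT7 libraries lay on both sides of the siCtrl ones.

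**Figure D1:**
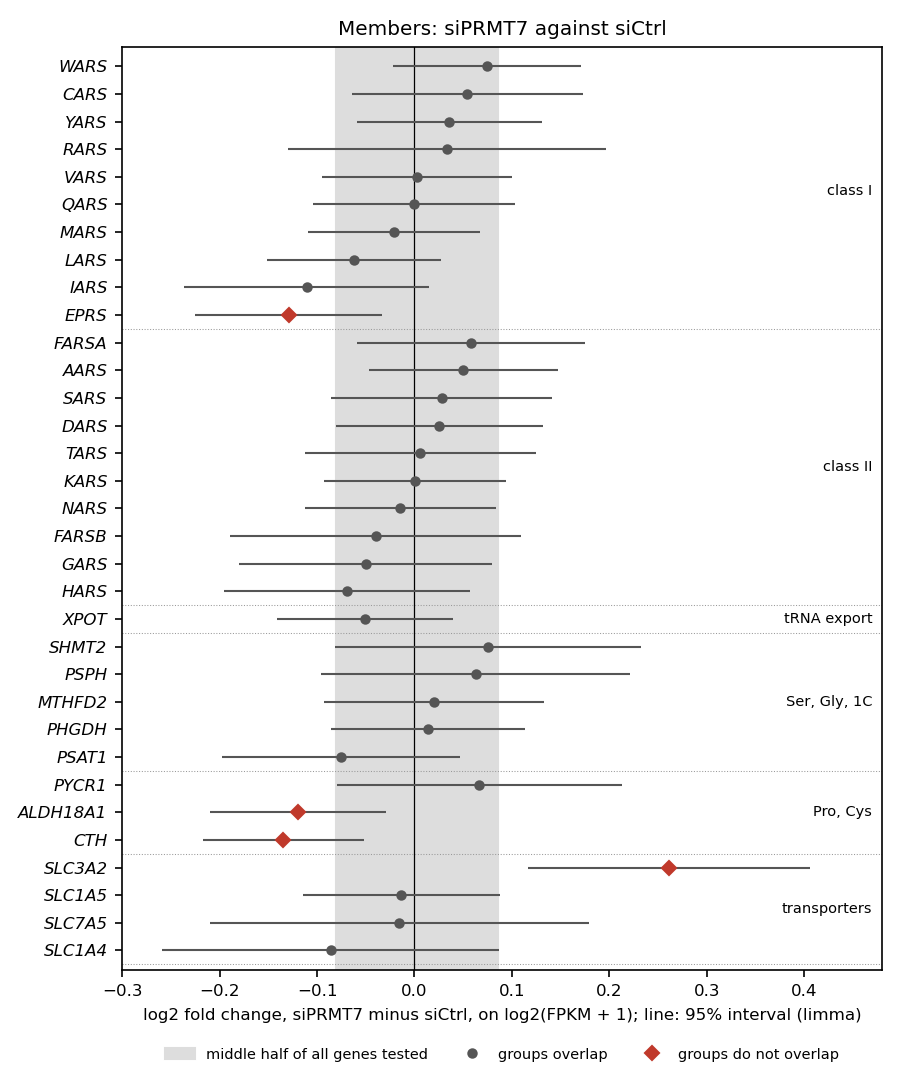
Log2 fold change (x axis, siPRMT7 minus siCtrl on log2(FPKM + 1)) of the 33 tested members by role, with 95% limma intervals. The grey band spans the middle 50% of all genes tested, from -0.08 to 0.09. Diamonds mark SLC3A2, ALDH18A1, CTH and EPRS, whose groups do not overlap; SLC3A2 lies farthest from 0.

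The library that stood apart also stood apart in these genes, in both directions. siPRMT7 replicate 2 was the highest of the 8 libraries for 11 members and the lowest for 9, so it held an extreme for 20 of 33. The other siPRMT7 libraries held one for 8 to 10 members each, and the siCtrl libraries for 3 to 7. Where leaving this library out moved a fold change printed with its adjusted p by over 1.5 times, or turned the majority of a list, that value is given beside it.

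**Figure D2:**
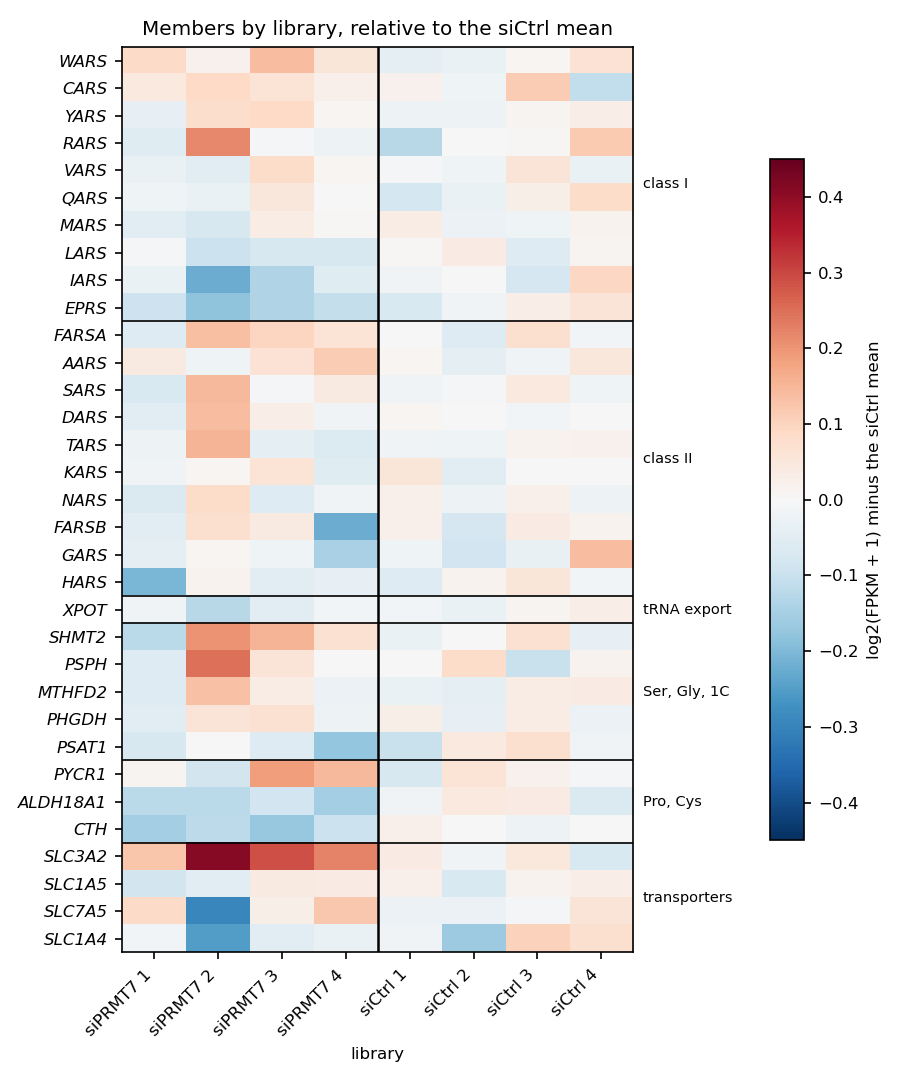
Each row is a tested member, each column a library with siPRMT7 on the left; colour gives log2(FPKM + 1) minus the siCtrl mean of that gene. siPRMT7 replicate 2 holds the strongest colours, red for SLC3A2, PSPH and RARS and blue for SLC7A5, SLC1A4 and IARS, while CTH and ALDH18A1 are blue in all 4 siPRMT7 libraries.

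WARS, the member set against the other synthetases, was slightly higher in siPRMT7, and the difference did not pass. WARS (ENSG00000140105, GRCh38, chr14:100333788-100376805, minus strand) had 35.0, 33.4, 36.4 and 34.2 FPKM in siPRMT7 replicates 1 to 4, against 32.02, 32.2, 33.2 and 34.5 FPKM in siCtrl replicates 1 to 4. The groups overlapped, since siCtrl replicate 4 exceeded siPRMT7 replicates 2 and 4. The log2 fold change was 0.07 (SE 0.0429, 95% interval from -0.02 to 0.17, limma adjusted p = 0.470), and 0.09 without siPRMT7 replicate 2 (limma adjusted p = 0.364; 0.227 to 0.812 over all alternatives). It was covered by 3180 to 3480 fragments in each library. Genes on the opposite strand, AL157871.4 and WDR25, share 10.6% of the exonic bases of WARS. The strand setting used in counting is not stated in the labels or notes, so such reads cannot be told apart.

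Among the 20 synthetases the log2 fold change of WARS (0.0744) ranked 1 from the top, while the median of the other 19 was 0.0003. FARSA (0.0582), CARS (0.0542) and AARS (0.0503) followed, all inside the 95% interval of WARS, so the rank does not set it apart. WARS minus the mean log2(FPKM + 1) of the other 19 was 0.141, 0.006, 0.149 and 0.0951 in siPRMT7 replicates 1 to 4, against -0.0149, 0.0046, 0.0065 and 0.054 in siCtrl replicates 1 to 4. In 3 of 4 siPRMT7 libraries it lay above every siCtrl library, and replicate 2 lay among them. The mean difference between groups was 0.085, or 0.116 without siPRMT7 replicate 2. This is a description with no test. By level WARS ranked 9 or 10 of 20 in each library.

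**Figure D3:**
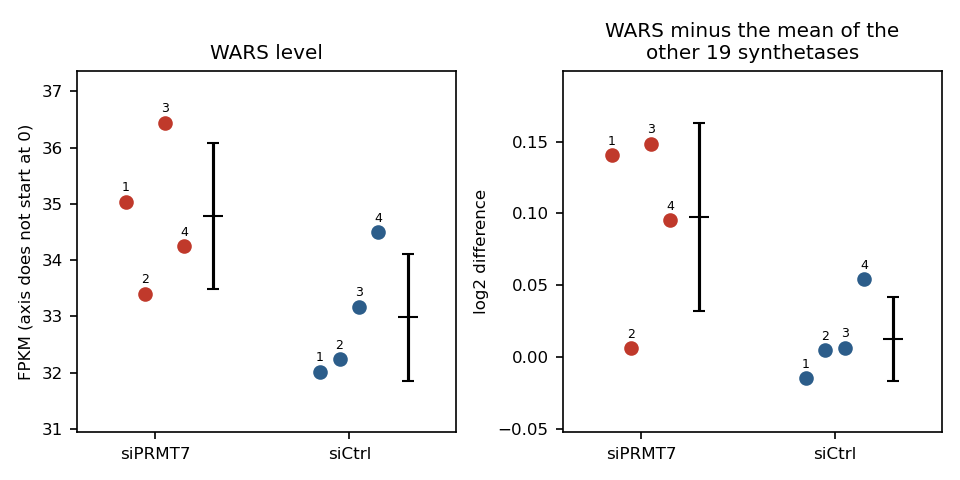
Left, WARS in FPKM per library; right, WARS minus the mean of the other 19 cytosolic synthetases on log2(FPKM + 1). Points carry replicate numbers and bars give the mean ± SD (n = 4). Both panels overlap between groups, on the right through siPRMT7 replicate 2 alone.

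The interferon-induced genes listed to set WARS against were mostly higher. Of 14 such genes, all tested, 13 were higher in siPRMT7 with a median log2 fold change of 0.23. At an unadjusted p under 0.05 there were 11 of 14, all higher, against 7.67% of all genes in that direction. In limma 0 passed over all genes. TAP1, a peptide transporter of antigen presentation, averaged 32 ± 0.533 FPKM in siPRMT7 and 26.8 ± 0.822 FPKM in siCtrl libraries (SD, n = 4 each; log2 fold change 0.25, limma adjusted p = 0.101, and 0.0326 to 0.358 over all alternatives, lowest with library weights). IRF1, an interferon-induced transcription factor, averaged 6.81 ± 0.511 FPKM in siPRMT7 and 5.56 ± 0.156 FPKM in siCtrl libraries (0.25, limma adjusted p = 0.182). Their log2 fold changes exceeded the upper bound for WARS. The response of interferon genes in these libraries was known when the list was made, so it is no independent evidence.

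WARS has 2 start sites in the RefSeq promoter table (GRCh38.p14). The upstream one holds no match to the interferon motifs searched. The 250 bases before the downstream one, chr14:100375348-100375597 on the minus strand, hold both and are shown because WARS is the member known for interferon induction. Capitals mark the match to the interferon-stimulated response element, GAAA, any 2 bases and GAAA (position -55 to -46), and that to the gamma-activated site, TTCNNNGAA (position -142 to -134), counted back from the start.
WARS: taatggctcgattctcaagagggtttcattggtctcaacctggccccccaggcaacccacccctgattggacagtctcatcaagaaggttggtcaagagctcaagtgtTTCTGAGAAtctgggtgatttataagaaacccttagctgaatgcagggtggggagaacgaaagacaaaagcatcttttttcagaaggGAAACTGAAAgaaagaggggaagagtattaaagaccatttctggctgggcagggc
Both strands were searched, in windows of 250 bases before to 50 after each start. The first motif occurred for 1 of the 27 members matched in that table, WARS, and for 4.38% of all genes. TTCNNNGAA occurred for 4 of 27 (WARS, CARS, TARS and SLC3A2) and for 9.38% of all genes. A match is a run of letters, not a measured site.

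The C/EBP-ATF response element was searched as TGATGNAA on both strands. It occurred for 11 of 27 members matched (40.7%), 7 of them among 16 synthetases, and for 4.46% of all 27305 genes in the table. The list was drawn up around known ATF4 targets and ATF4 binds this element, so the higher share among members is no independent finding. LARS, VARS, YARS, DARS, PSPH, SHMT2 and PYCR1 did not match the table. Each match is shown with its flanks, read in the direction of the motif, with the motif in capitals and coordinates on GRCh38.p14. Each lay in 1 of its gene's start windows and overlapped no match of the other motifs.
AARS (chr16:70289676-70289703, plus strand): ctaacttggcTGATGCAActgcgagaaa
CARS (chr11:3057408-3057435, plus strand): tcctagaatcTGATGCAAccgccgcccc
GARS (chr7:30594835-30594862, minus strand): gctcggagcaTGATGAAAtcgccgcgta
IARS (chr9:92293693-92293720, plus strand): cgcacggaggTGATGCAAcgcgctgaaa
MARS (chr12:57488054-57488081, minus strand): aatccctcgcTGATGCAAccggaaccgg
NARS (chr18:57621805-57621832, minus strand): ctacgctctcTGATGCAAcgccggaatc
TARS (chr5:33440957-33440984, minus strand): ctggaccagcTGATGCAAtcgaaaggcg
ASNS (chr7:97872459-97872486, minus strand): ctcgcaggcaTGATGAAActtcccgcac
SLC3A2 (chr11:62881726-62881748, minus strand): ggagcTGATGTAAggagtcctgc
SLC1A4 (chr2:64989382-64989409, minus strand): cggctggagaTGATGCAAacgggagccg
SLC1A5 (chr19:46784894-46784921, minus strand): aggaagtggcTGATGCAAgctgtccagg
The variable letter N of the motif was C in AARS, CARS, IARS, MARS, NARS, TARS, SLC1A4 and SLC1A5, A in GARS and ASNS, and T in SLC3A2. The 10 carriers that were tested had a median log2 fold change of -0.0139 (from -0.11 to 0.26, 4 higher and 6 lower), and the 16 tested members without the motif -0.008 (from -0.13 to 0.07, 7 higher and 9 lower).

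The class I synthetases other than WARS, with EPRS counted among them, lay close to 0 on both sides. Of 9, 4 were higher and 5 lower in siPRMT7 (log2 fold change from -0.13 to 0.05, median -0.0006), and 0 passed in limma. EPRS (ENSG00000136628, chr1:219968601-220046658, minus strand), which charges glutamate and proline tRNAs and is part of the multi-synthetase complex, had 60.5, 56.9, 58.8 and 60.0 FPKM in siPRMT7 replicates 1 to 4. In siCtrl replicates 1 to 4 it had 61.6, 63.9, 66.0 and 67.4 FPKM. All 4 siPRMT7 values lay below all 4 siCtrl values, which held for 4.43% of all genes. The log2 fold change was -0.13 (SE 0.0424, limma adjusted p = 0.286) and -0.11 without siPRMT7 replicate 2.

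IARS, the isoleucyl-tRNA synthetase, had 29.5, 25.7, 27.4 and 29.01 FPKM in siPRMT7 replicates 1 to 4, against 29.8, 30.1, 28.6 and 32.2 FPKM in siCtrl replicates 1 to 4. The groups overlapped, and the lowest value was that of siPRMT7 replicate 2. Its log2 fold change was -0.11 (limma adjusted p = 0.424), or -0.07 without that library. The remaining class I enzymes (CARS, LARS, MARS, QARS, RARS, VARS and YARS) lay between -0.06 (LARS) and 0.05 (CARS).

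The class II synthetases, listed without EPRS, lay within a narrower range. Of 10, 6 were higher and 4 lower in siPRMT7 (log2 fold change from -0.07 to 0.06, median 0.0032), 0 passed in limma, and 0 had an unadjusted p under 0.05. Without siPRMT7 replicate 2 the split was 2 higher and 8 lower. HARS, the histidyl-tRNA synthetase, had 9.17, 10.9, 10.3 and 10.4 FPKM in siPRMT7 replicates 1 to 4, against 10.3, 10.9, 11.2 and 10.6 FPKM in siCtrl replicates 1 to 4. siPRMT7 replicate 1 was low and the rest overlapped (log2 fold change -0.07, limma adjusted p = 0.586, and -0.0236 without that library). AARS, the alanyl-tRNA synthetase, had 101, 96.98, 103 and 106 FPKM in siPRMT7 replicates 1 to 4, against 98.9, 95.2, 97.0 and 102 FPKM in siCtrl replicates 1 to 4. Its groups overlapped too (log2 fold change 0.05, limma adjusted p = 0.607), and its value was 0.0288 without siPRMT7 replicate 4 and turned to -0.03 with quantile normalization.

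On the FPKM scale, which is per gene length, the levels of the synthetases spanned a wide range. AARS was the highest at 102 ± 3.90 FPKM in siPRMT7 and 98.2 ± 2.77 FPKM in siCtrl libraries, and HARS the lowest at 10.2 ± 0.731 FPKM in siPRMT7 and 10.7 ± 0.389 FPKM in siCtrl libraries (SD, n = 4 each). The ratio of their means over all 8 libraries was 9.54. FARSA and FARSB encode the catalytic and the other subunit of the phenylalanyl-tRNA synthetase, which assembles from equal numbers of each. FARSA averaged 86.1 ± 4.96 FPKM in siPRMT7 and 82.6 ± 3.10 FPKM in siCtrl libraries, while FARSB averaged 21.4 ± 1.99 FPKM in siPRMT7 and 21.9 ± 0.784 FPKM in siCtrl libraries. Of the 19 pairs of neighbours in the order, 12 overlapped in their range over the 8 libraries. The 2 highest, AARS and FARSA, overlapped neither each other nor the next, EPRS. Class II enzymes held ranks 1, 2, 4 to 8, 16, 17 and 20, and class I enzymes ranks 3, 9 to 15, 18 and 19.

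XPOT, the exportin that carries mature tRNAs out of the nucleus, had 39.98, 37.0, 39.0 and 40.0 FPKM in siPRMT7 replicates 1 to 4. In siCtrl replicates 1 to 4 it had 40.0, 39.5, 40.8 and 41.2 FPKM. The groups overlapped (log2 fold change -0.05, limma adjusted p = 0.576), and without siPRMT7 replicate 2, the lowest, the fold change was -0.0259.

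The serine, glycine and one-carbon enzymes gave no call. Of the 5, PHGDH, PSPH, SHMT2 and MTHFD2 were higher and PSAT1 lower in siPRMT7, with 0 passing in limma and log2 fold changes from -0.08 to 0.08. Leaving out siPRMT7 replicate 2 gave 2 higher and 3 lower. PSAT1, the phosphoserine aminotransferase, had 18.5, 19.6, 18.7 and 17.2 FPKM in siPRMT7 replicates 1 to 4, against 18.2, 20.2, 20.6 and 19.3 FPKM in siCtrl replicates 1 to 4 (limma adjusted p = 0.545). SHMT2, the mitochondrial serine hydroxymethyltransferase, had 29.9, 37.7, 36.4 and 34.3 FPKM in siPRMT7 replicates 1 to 4, against 31.96, 32.6, 34.3 and 31.7 FPKM in siCtrl replicates 1 to 4 (limma adjusted p = 0.628). In both genes the groups overlapped, and for SHMT2 the siPRMT7 libraries held the lowest and the highest value. Its log2 fold change of 0.08 was 0.0331 without siPRMT7 replicate 2 and 0.14 without siPRMT7 replicate 1. That of PSAT1, -0.08, was -0.0426 without siPRMT7 replicate 4. MTHFD2 has 7 named pseudogenes in the table and PSAT1 has 4, and genes on the opposite strand share 33.2% of the exonic bases of MTHFD2, so their values are uncertain.

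The enzymes of cysteine and proline synthesis held 2 of the 4 members without overlap. CTH (ENSG00000116761, chr1:70411218-70439851, plus strand), cystathionine gamma-lyase, makes cysteine in the last step of transsulfuration. It had 17.1, 17.6, 16.9 and 17.8 FPKM in siPRMT7 replicates 1 to 4, against 19.5, 19.1, 18.8 and 19.2 FPKM in siCtrl replicates 1 to 4. Every siPRMT7 library lay below every siCtrl library, with a mean difference of -9.35%. The log2 fold change was -0.13 (SE 0.0364, unadjusted p = 0.00492, limma adjusted p = 0.217) and -0.14 without siPRMT7 replicate 2. It was covered by 612 to 746 fragments in each library and shares no exonic bases with another gene.

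ALDH18A1 (ENSG00000059573, chr10:95605929-95656706, minus strand) starts proline synthesis from glutamate. It had 20.5, 20.5, 21.0 and 20.04 FPKM in siPRMT7 replicates 1 to 4, against 22.1, 23.1, 23.0 and 21.3 FPKM in siCtrl replicates 1 to 4. Again the groups did not overlap, with a mean difference of -8.34%. The log2 fold change was -0.12 (SE 0.0400, limma adjusted p = 0.287), with or without siPRMT7 replicate 2. PYCR1, which acts after ALDH18A1 in the same pathway, averaged 18.2 ± 1.65 FPKM in siPRMT7 and 17.3 ± 0.70 FPKM in siCtrl libraries (SD, n = 4 each; log2 fold change 0.07, limma adjusted p = 0.651, and 0.12 without siPRMT7 replicate 2). Other genes share 15.6% of its exonic bases on the opposite strand and 14.1% on the same strand.

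ASNS (ENSG00000070669, chr7:97852118-97872542, minus strand), the asparagine synthetase and the textbook amino acid response gene, was the 1 member below the filter. It had 0.809, 0.897, 0.717 and 0.815 FPKM in siPRMT7 replicates 1 to 4, against 0.848, 0.702, 0.874 and 0.603 FPKM in siCtrl replicates 1 to 4. The groups overlapped, and with no filter its log2 fold change was 0.04 (95% limma interval from -0.17 to 0.25, adjusted p = 0.885). Each library held 39 to 60 fragments of it. The next lowest member, SLC1A4, averaged 6.09 ± 0.530 FPKM in siPRMT7 and 6.53 ± 0.608 FPKM in siCtrl libraries. ASNS shares 44.6% of its exonic bases with AC079781.5, annotated on the same strand and itself at 0.0749 to 0.186 FPKM in siPRMT7 and 0.0963 to 0.123 FPKM in siCtrl libraries. How fragments in shared bases were counted is not stated in the labels or notes, so the level of ASNS is uncertain, and the part of this overlap was not tested.

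Of the 4 transporters, SLC3A2 was the member with the largest difference of the 33. SLC3A2 (ENSG00000168003, chr11:62856102-62888875, plus strand) encodes the 4F2 heavy chain, which brings light chains such as SLC7A5 and SLC7A11 to the plasma membrane. It had 190.3, 232, 214 and 204 FPKM in siPRMT7 replicates 1 to 4, against 179, 173, 180.3 and 166 FPKM in siCtrl replicates 1 to 4. Every siPRMT7 library lay above every siCtrl library, which held for 4.14% of all genes in that direction. The mean was 20.2% higher, the log2 fold change 0.26 (SE 0.0641, 95% interval from 0.12 to 0.41, unadjusted p = 0.00276), and the limma adjusted p 0.193. Without siPRMT7 replicate 2, which held the highest value, the log2 fold change was 0.21 (limma adjusted p = 0.178; 0.0802 to 0.439 over all alternatives). With 12502 to 18081 fragments per library it was the most deeply covered member, and it shares no exonic bases with another gene.

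SLC7A5 (ENSG00000103257, chr16:87830023-87869488, minus strand), the light chain LAT1 that carries large neutral amino acids in a heterodimer with SLC3A2, did not have this pattern. It is given by library because of its values, not by the rule for named genes. It had 119, 91.5, 115 and 122 FPKM in siPRMT7 replicates 1 to 4, against 110.4, 110.5, 112 and 117 FPKM in siCtrl replicates 1 to 4. siPRMT7 replicate 2, where SLC3A2 was highest, was the lowest for SLC7A5. The log2 fold change was -0.0154 (limma adjusted p = 0.946), but 0.08 without that library (limma adjusted p = 0.433; 0.433 to 0.990 over all alternatives) and also above 0 with library weights or without siCtrl replicate 4. The difference between the 2 genes was not tested.

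SLC1A4, a neutral amino acid exchanger, had 6.45, 5.31, 6.26 and 6.36 FPKM in siPRMT7 replicates 1 to 4, against 6.43, 5.71, 7.07 and 6.90 FPKM in siCtrl replicates 1 to 4. The groups overlapped (log2 fold change -0.09, limma adjusted p = 0.620), and the value was -0.0305 without siPRMT7 replicate 2. SLC1A5, the glutamine transporter ASCT2, averaged 38.5 ± 1.66 FPKM in siPRMT7 and 38.8 ± 1.26 FPKM in siCtrl libraries (SD, n = 4 each). Genes on the opposite strand share 23.8% of its exonic bases.

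**Figure D4:**
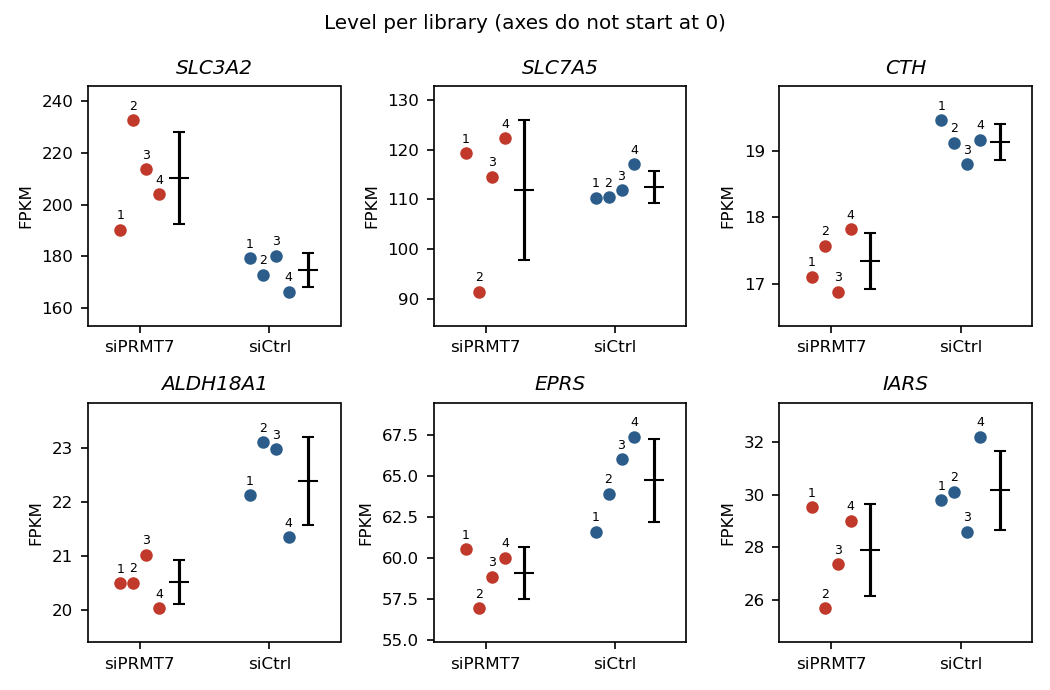
FPKM per library of 6 members, with replicate numbers and the mean ± SD (n = 4) beside the points; axes do not start at 0. SLC3A2, CTH, ALDH18A1 and EPRS show no overlap between siPRMT7 and siCtrl, IARS does, and SLC7A5 is spread by siPRMT7 replicate 2 at 91.5 FPKM.

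The mitochondrial synthetases, which charge tRNAs of the organelle and are mostly separate genes, gave no call either. Of 17, 16 were tested; 5 were higher and 11 lower in siPRMT7, with a median of -0.0163 and 0 passing in limma. For the 20 cytosolic synthetases these were 11 higher and 9 lower with a median of 0.0014 (7 higher and 13 lower without siPRMT7 replicate 2), and the lists were not tested against each other. TARS2, the mitochondrial threonyl-tRNA synthetase, averaged 14.3 ± 0.738 FPKM in siPRMT7 and 14.8 ± 0.555 FPKM in siCtrl libraries (SD, n = 4 each; log2 fold change -0.05, limma adjusted p = 0.638, and -0.08 without siPRMT7 replicate 2).

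Transcripts of ATF4 itself and of several regulators in its circuit were higher in siPRMT7, with none passing in limma. Of 20 such genes 18 were tested, 13 higher and 5 lower (median 0.05). At an unadjusted p under 0.05 there were 6, all higher, against 7.67% of all genes in that direction. The list was chosen with earlier results of these data known, so the count is no independent evidence. ATF4, named after its values were seen, had 134, 158, 148 and 138 FPKM in siPRMT7 replicates 1 to 4, against 129, 130.3, 134 and 124 FPKM in siCtrl replicates 1 to 4. Its groups did not overlap (log2 fold change 0.16, limma adjusted p = 0.310), and replicate 2 was again the highest (0.11 without it, and 0.05 with quantile normalization). ATF4 is controlled mainly at translation, which RNA levels do not show.

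PPP1R15A, the phosphatase subunit that reverses eIF2alpha phosphorylation, averaged 126 ± 6.90 FPKM in siPRMT7 and 98.96 ± 3.21 FPKM in siCtrl libraries (SD, n = 4 each; log2 fold change 0.34, limma adjusted p = 0.101, and 0.0258 to 0.338 over all alternatives, lowest with library weights). ATF3, a stress-induced repressor, averaged 43.2 ± 1.73 FPKM in siPRMT7 and 36.5 ± 1.42 FPKM in siCtrl libraries (0.24, limma adjusted p = 0.143, and 0.0369 to 0.382 over all alternatives, lowest with library weights). The groups did not overlap for these 2, ATF4 and CEBPB, the last named after its values were seen. That was 4 of the 18 tested in the list (22.2%), all higher, against 4.14% of all genes in that direction. As the list was chosen with earlier results known, this share is no independent evidence either. The other amino acid and one-carbon enzymes had 15 of 22 tested, 9 higher and 6 lower (median 0.01), but 6 higher and 9 lower without siPRMT7 replicate 2 (median -0.0143). In that list MTHFD1, the cytosolic folate enzyme, averaged 21.1 ± 0.664 FPKM in siPRMT7 and 23.1 ± 0.412 FPKM in siCtrl libraries (log2 fold change -0.13, limma adjusted p = 0.253). GOT2, the mitochondrial aspartate aminotransferase, averaged 42.5 ± 1.13 FPKM in siPRMT7 and 46.1 ± 2.04 FPKM in siCtrl libraries (-0.12, limma adjusted p = 0.318).

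**Figure D5:**
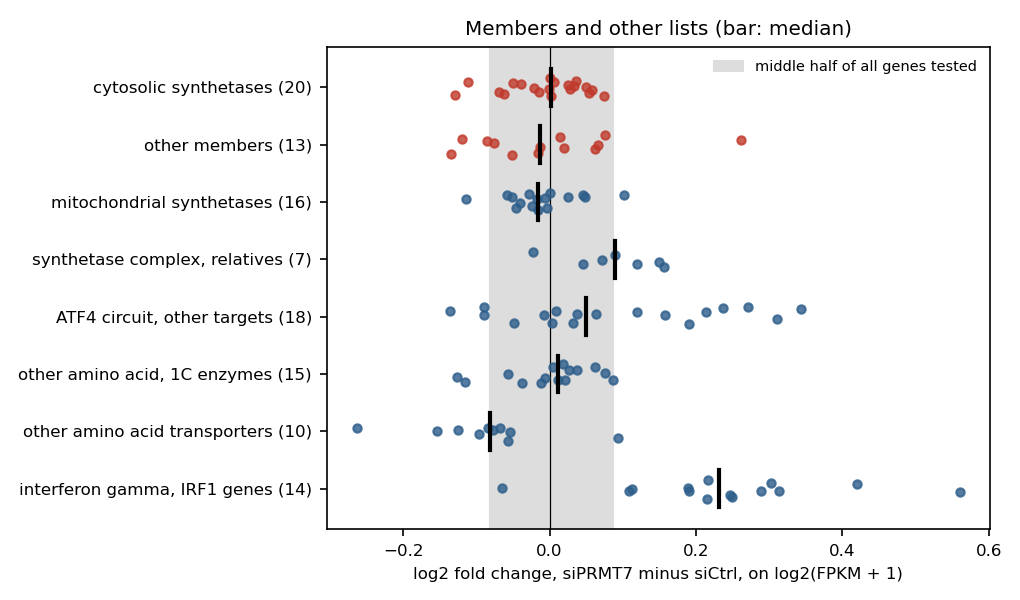
Log2 fold changes (siPRMT7 minus siCtrl on log2(FPKM + 1)) of single genes by list, with the number tested in brackets, the median as a bar, and the middle 50% of all genes tested as a grey band. The members (red) centre on 0, while the interferon gamma and IRF1 genes centre on 0.23.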

How the data were processed

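Poly(A)-selected RNA of 8 PC3 libraries was sequenced, 4 per group by title. The table the authors deposited holds FPKM, per its file name. Trimming, alignment and counting tools are listed as cutadapt 2.5, HISAT2 2.1.0 and featureCounts 1.6.3, per the submitters' processing notes. A mouse build is listed too, but all 58735 identifiers are human and match GENCODE release 29 (GRCh38) in start, end and strand. Multiplied by gene length, 100% of values above 0 were whole multiples of a library-specific unit (tolerance 0.01), which gave fragment counts.

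Genes reaching 1 FPKM in 4 or more libraries were analysed as log2(FPKM + 1) in limma 3.58.1 (R 4.3.3) with a variance trend, two-sided, with Benjamini-Hochberg adjustment over all genes at 0.05. The method was tested on simulated libraries, drawn with the same extra spread for every gene and no library standing apart. That test does not show how the method behaves with a library like siPRMT7 replicate 2. Fold changes on this scale understate those of low genes. In each role group the members with the 2 smallest p (at most 1 for groups below 4 members) are given by library, as are WARS and ASNS, and from each other list the 2 smallest p, of which 1 gene is not reported here. Members and lists were chosen with earlier results of these data known. Of 151 list entries, all matched; promoter sequences are from RefSeq. The alternatives were another pseudocount, other filters, scalings and variance models, library weights, voom, a replicate block and leaving out each library.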

Additional observations from a re-analysis of the deposited data

Results flagged for a closer look

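In groups of 4, a library was singled out when its gap to its nearest neighbour took up most of the group's range (Dixon's test at the 95% level). This gave 7 of 94 groups (47 genes, 2 groups each), where chance gives about 1 in 20. siPRMT7 replicate 2 accounted for 4 of the 7. It was the highest siPRMT7 library for RARS, the arginyl-tRNA synthetase (35.2 FPKM, others 28.99 to 29.95), and for TARS, the threonyl-tRNA synthetase (62.5 FPKM, others 53.7 to 55.2). It was the lowest for SLC1A4 (5.31 FPKM, others 6.26 to 6.45) and for SLC7A1, a cationic amino acid transporter (7.21 FPKM, others 10.2 to 10.8). PPP1R15A was lowest in siPRMT7 replicate 1, at 115.5 FPKM against 129.1 to 129.6 in the others. Among siCtrl libraries, SARS, the seryl-tRNA synthetase, was highest in replicate 3 (50.1 FPKM, others 47.8 to 48.2), and SLC1A5 was lowest in replicate 2 (36.95 FPKM, others 39.2 to 39.7).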

How the results depend on the processing

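The count of members called was 0 under all 18 alternatives, including voom. The log2 fold change of WARS kept its direction and did not pass in any of the 18 (0.03 to 0.10, limma adjusted p 0.227 to 0.812). SLC3A2 ran from 0.16 to 0.31 (adjusted p 0.0802 to 0.439), CTH from -0.18 to -0.12, ALDH18A1 from -0.16 to -0.10 and EPRS from -0.18 to -0.11, none of them passing. The lowest values of WARS (0.0281) and SLC3A2 (0.1575) came with quantile normalization, and ATF4 ran from 0.053 to 0.194. With library weights PPP1R15A, ATF3 and TAP1 passed, and with voom PPP1R15A. The member median was -0.0407 on the TPM scale, where the median of all genes moved to -0.0409, and -0.0406 with quantile normalization, where that of all genes was -0.0057. It ran from -0.0178 to 0.0184 without 1 library. AARS turned to -0.0323 with quantile normalization, and SLC7A5 to 0.0557 with library weights, and ran from -0.0607 to 0.0776 without 1 library; the cause was not tested. Over all genes the 2 calls became 1 with a pseudocount of 0.1, FPKM of at least 5 or quantile normalization, 5 unfiltered, 12 with voom, 58 with library weights, and 0 to 2 without 1 library. PRMT7 was -0.16 on the TPM scale (exact permutation p = 0.0286). The replicate block gave 0 calls. Same-numbered libraries correlated at -0.0314 to 0.0613, and 2 of 4 siPRMT7 libraries correlated best with their own number. With so few libraries these correlations cannot decide whether numbers pair samples. Fewer than 100 fragments limit ASNS.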

Other observations

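The amino acid transporters outside the module were mostly lower in siPRMT7. Of 15, 10 were tested; 9 were lower and 1 higher, and the median log2 fold change was -0.08 (8 lower and a median of -0.06 without siPRMT7 replicate 2). In limma 0 passed. At an unadjusted p under 0.05 there were 2, both lower, against 5.49% of all genes in that direction. This list too was chosen with earlier results of these data known. SLC7A1 averaged 9.76 ± 1.72 FPKM in siPRMT7 and 11.8 ± 0.721 FPKM in siCtrl libraries (SD, n = 4 each; log2 fold change -0.26, limma adjusted p = 0.369), and -0.14 without siPRMT7 replicate 2. SLC38A1, a glutamine transporter, averaged 33.0 ± 2.08 FPKM in siPRMT7 and 36.1 ± 1.44 FPKM in siCtrl libraries (-0.12, limma adjusted p = 0.366).

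Scaffolds of the multi-synthetase complex and related tRNA factors leaned the other way. Of 7, all tested, 6 were higher and 1 lower (median 0.09), with 0 passing and 0 at an unadjusted p under 0.05. Without siPRMT7 replicate 2 the split was 4 and 3. AIMP1, a scaffold of the complex, averaged 13.6 ± 1.06 FPKM in siPRMT7 and 12.2 ± 0.927 FPKM in siCtrl libraries (log2 fold change 0.15, limma adjusted p = 0.389). PTRH2, a mitochondrial peptidyl-tRNA hydrolase, averaged 12.5 ± 0.896 FPKM in siPRMT7 and 11.4 ± 0.426 FPKM in siCtrl libraries (0.12, limma adjusted p = 0.394).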
